A study of Canis lupus familiaris with 15 samples.

Results

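ALDH1L2, the mitochondrial member of the folate-using aldehyde dehydrogenases, is 1 gene of the 5246 with a symbol on these arrays and is measured by 2 cDNA probes, called here probe 4470 and probe 17581. It was chosen by its ratios between the cell lines on these same arrays, so its ratios between lines, and the differences between its probes, are described and not tested. The study compared 3 dog mammary tumour cell lines with each other: the anaplastic carcinoma line P114, the mammary osteosarcoma line CMT-U335 and CMT-U229, which was derived from a mixed tumour that was benign. All 3 were untreated and grown until nearly confluent, and each tumour type is represented by 1 cultured line, so a difference between lines cannot be read as a difference between tumour types. Labelled RNA of 2 lines was hybridised together on each of 15 arrays, with 5 arrays for each of the pairs P114 over CMT-U335, P114 over CMT-U229 and CMT-U229 over CMT-U335. The dyes were exchanged on some arrays of each pair.

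Each array is labelled as 1 of 5 biological replicates, but the study's design text mentions both dye swaps and biological replication of 1 or more. Some arrays may therefore share RNA, and p-values then measure only the spread between these arrays. Values are log2 ratios of the first line over the second, read from the deposited numbers as Cy5 over Cy3. The numerator is not stated, so every direction below is likely and not settled. Its basis is that the labels list the Cy5 sample first. Marker genes do not settle it, since both kinds went both ways between the carcinoma line and the osteosarcoma line. Under this reading the epithelial genes EPCAM (3.55), KRT18 (3.48), KRT8 (2.46) and DSP (0.57) were higher in the carcinoma line. The epithelial gene TJP1 was lower there (-0.35), with probes at -0.61 and -0.08. The bone matrix genes SPP1 (4.12) and SPARC (0.56) were also higher there, whereas the bone matrix gene COL1A2 was lower (-1.39). The opposite reading would exchange all directions.

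Cells carry single-carbon units on tetrahydrofolate, and the mitochondrion runs its own branch of this cycle beside the one in the cytosol. ALDH1L2 oxidises formyl-tetrahydrofolate inside mitochondria to carbon dioxide and tetrahydrofolate and makes NADPH, which cells use for reduction of glutathione and thioredoxin and for biosynthesis. ALDH1L1 carries out the same reaction in the cytosol. The same mitochondrial formyl-tetrahydrofolate is also the formyl donor for the initiator tRNA of mitochondrial protein synthesis.

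ALDH1L2 was lower in P114 than in either other line on all 10 arrays that carried P114, and lower in CMT-U229 than in CMT-U335 on all 5 arrays of that pair. P114 over CMT-U335 gave log2 ratios of -2.83, -2.32, -3.09, -3.00 and -3.40 on replicates 1 to 5 when both probes were averaged. The mean was -2.93 (SD 0.40, n = 5), a 7.61-fold lower signal in P114, and single arrays ran from 4.98-fold to 10.5-fold lower. Replicate 2 was the nearest to 0 and replicate 5 the farthest from it.

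P114 over CMT-U229 gave -1.97, -2.15, -1.67, -2.37 and -2.44. The mean of -2.12 (SD 0.31, n = 5) is a 4.35-fold lower signal in P114, with single arrays from 3.18-fold to 5.43-fold lower. The range of this pair overlapped that of P114 over CMT-U335, since replicate 2 of the latter lay at -2.32. Both pairs share P114, and the difference between them was not tested.

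CMT-U229 over CMT-U335 gave -0.64, -1.30, -1.18, -0.75 and -0.56. The mean of -0.89 (SD 0.33, n = 5) is a 1.85-fold lower signal in CMT-U229, with single arrays from 1.48-fold to 2.45-fold lower. Its lowest array, at -1.30, stayed above the highest array of both pairs with P114. In bulk RNA of a culture, fewer cells with the transcript and less of it per cell cannot be told apart.

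**Figure D1:**
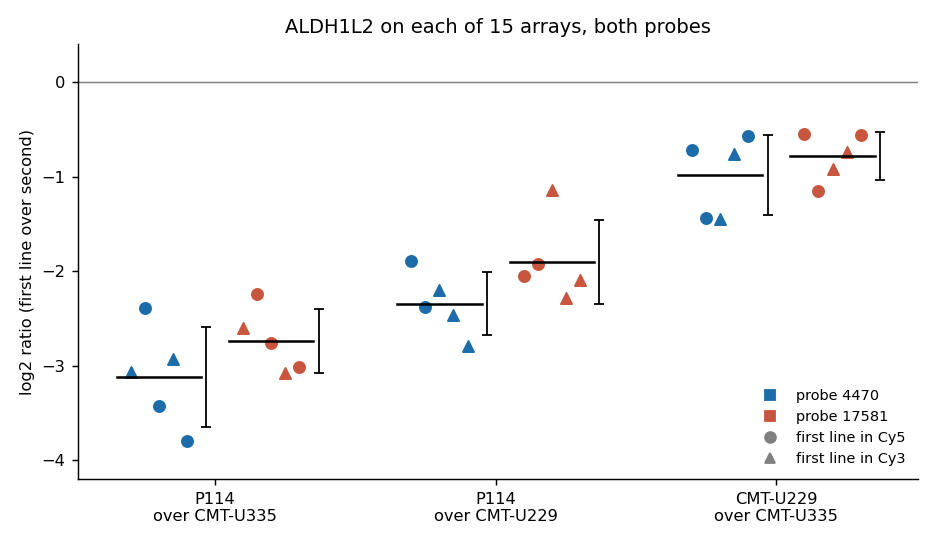
Log2 ratio of ALDH1L2 (y axis, first line over second) on each of the 15 arrays, grouped by pair of lines. Colours mark the 2 probes, circles and triangles the dye of the first line, horizontal bars the mean and error bars the SD over 5 arrays; every point lies below 0, and the pair means of the 2 probes together are -2.93, -2.12 and -0.89.

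Each probe gave the same order of the pairs by itself. Probe 4470 read -3.07, -2.39, -3.42, -2.93 and -3.79 in P114 over CMT-U335, with a mean of -3.12 (SD 0.53, n = 5), or 8.69-fold lower. Probe 17581 read -2.60, -2.24, -2.76, -3.08 and -3.01 on the same arrays, with a mean of -2.74 (SD 0.34, n = 5), or 6.67-fold lower. The probes agreed on the sign of every array and exchanged rank on replicate 4 alone.

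In P114 over CMT-U229, probe 4470 read -1.90, -2.37, -2.19, -2.46 and -2.79, with a mean of -2.34 (SD 0.33, n = 5). Probe 17581 read -2.05, -1.93, -1.15, -2.29 and -2.10, with a mean of -1.90 (SD 0.44, n = 5). These means are 5.07-fold and 3.74-fold lower in P114, and the widest gap between the probes was on replicate 3.

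In CMT-U229 over CMT-U335, probe 4470 read -0.72, -1.44, -1.45, -0.76 and -0.57, with a mean of -0.99 (SD 0.42, n = 5). Probe 17581 read -0.55, -1.15, -0.92, -0.74 and -0.56, with a mean of -0.78 (SD 0.26, n = 5). These are 1.98-fold and 1.72-fold lower in CMT-U229, and the probes nearly coincided on replicates 4 and 5.

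Probe 4470 reported the larger difference in all 3 pairs. Over all arrays its ratio lay below that of probe 17581 by a mean of -0.34 on the log2 scale (SD 0.36, n = 15), and it was the lower of the 2 on 13 of 15 arrays. Within pairs the difference was -0.38 (SD 0.38), -0.44 (SD 0.46) and -0.20 (SD 0.22), in the order used above. These means are about as large as their own SD over 5 arrays. Where the 2 probes lie along the transcript was not analysed here, and hybridisation of other related transcripts to them was not tested.

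Means of ALDH1L2 by dye lay close together. With the first line in Cy5 or in Cy3, the mean ratio was -2.94 (3 arrays) or -2.92 (2 arrays) in P114 over CMT-U335, -2.06 (2) or -2.16 (3) in P114 over CMT-U229, and -0.83 (3) or -0.97 (2) in CMT-U229 over CMT-U335. A fit of limma over all 15 arrays put its dye effect at 0.04 ± 0.0884 (SE; 95% confidence interval -0.15 to 0.23; Benjamini-Hochberg adjusted p = 0.842). For comparison, 11.7% of the 5246 genes were called for a dye effect in that fit, and 3831 genes had a larger one in absolute size.

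A loop of 3 lines gives P114 over CMT-U335 by a second route, through CMT-U229. That route gave -3.01 for ALDH1L2 against the direct -2.93, a gap of 0.08 ± 0.25 (SE from the fit over 15 arrays), and 2766 of the 5246 genes had a larger gap. With the arrays scaled to equal spread the gap was 0.44. The probes gave 0.21 and -0.05.

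Line levels fitted to all 15 arrays and set to sum to 0 placed P114 at -1.68, CMT-U229 at 0.41 and CMT-U335 at 1.27 on the log2 scale (SE 0.0711 each). The direct ratios of neighbouring lines had means of -2.12 and -0.89 beside SDs of 0.31 and 0.33, and both are among the values that chose the gene, so the order is a description. A ratio between lines gives no absolute level, so it cannot be said from these values whether P114 still makes the transcript.

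Among all genes, ALDH1L2 was the third from the bottom in P114 over CMT-U335, rank 5 in P114 over CMT-U229 and rank 106 in CMT-U229 over CMT-U335. By absolute size, in either direction, it stood at rank 9, 14 and 230 of 5246. The median gene lay at -0.02, -0.01 and -0.01. These ranks restate the values that chose the gene. Its arrays were also more spread than most, with 87.0%, 71.2% and 79.2% of genes having a smaller SD; the median SD over genes was 0.217, 0.227 and 0.211.

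**Figure D2:**
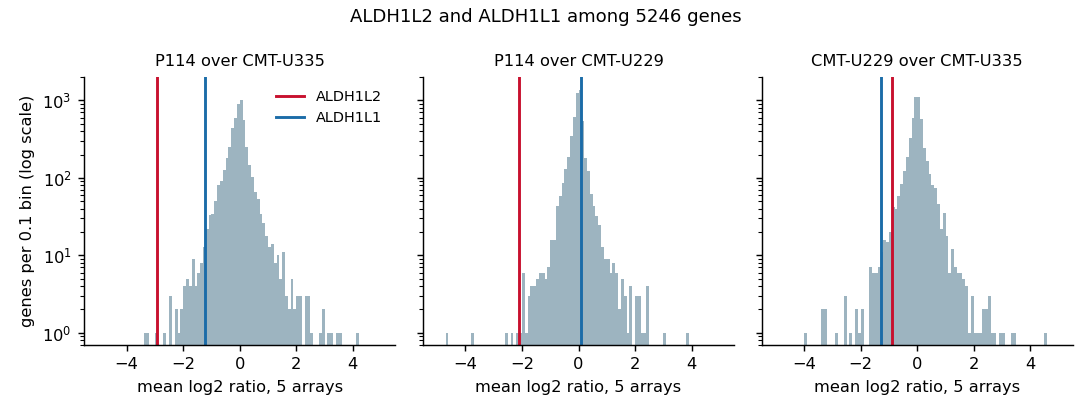
Histograms of the mean log2 ratio of all 5246 genes in each pair (x axis, bins of 0.1; y axis, number of genes on a log scale). Vertical lines mark ALDH1L2 at -2.93, -2.12 and -0.89 and its cytosolic relative ALDH1L1 at -1.23, 0.09 and -1.29.

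Beside ALDH1L2, 2 measured genes of the folate cycle were called in at least 1 pair, ALDH1L1 and SLC25A32. Calls came from limma in each pair, with adjustment over all 5246 genes and a threshold of 0.05. In P114 over CMT-U335, 22.3% of all genes were called, 7.89% higher and 14.4% lower in P114. In P114 over CMT-U229, 7.30% were called, 3.32% higher and 3.98% lower in P114. In CMT-U229 over CMT-U335, 17.3% were called, 8.77% higher and 8.58% lower in CMT-U229. The list of folate cycle enzymes and carriers had 24 genes beside ALDH1L2, and 7 of them were on the arrays with a symbol. Of these 7, 1 was called higher and 1 lower in the first pair, 0 in the second and 1 lower in the third. These are 28.6%, 0% and 14.3% of the list, and no difference from the shares of all genes was tested. The same goes for the lists below. The list's median was 0.03, 0.06 and -0.15.

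ALDH1L1, the cytosolic counterpart of ALDH1L2, was the member called lower. It read -1.46, -0.58, -1.29, -1.23 and -1.59 in P114 over CMT-U335, with a mean of -1.23 ± 0.144 (SE, n = 5), 2.34-fold lower in P114 (limma adjusted p = 0.00106). Between CMT-U229 and CMT-U335 it read -0.71, -1.26, -1.36, -1.80 and -1.33, a mean of -1.29 ± 0.144 and 2.45-fold lower in CMT-U229 (limma adjusted p = 0.00141). Between P114 and CMT-U229 it read 0.05, 0.29, 0.10, 0.14 and -0.12, a mean of 0.09 ± 0.0825 (95% confidence interval -0.10 to 0.29; limma adjusted p = 0.68).

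The pair P114 over CMT-U229 thus held -2.12 for ALDH1L2 beside 0.09 for ALDH1L1. Fitted line levels of ALDH1L1 were -0.38 in P114, -0.46 in CMT-U229 and 0.84 in CMT-U335 (SE 0.0666 each), so that CMT-U335 had the highest fitted level of both genes. CMT-U229 lay near P114 in its fitted level of ALDH1L1, and between the other lines in that of ALDH1L2. The 2 probes of ALDH1L1 gave -1.33 and -1.13 in the first pair, -0.01 and 0.19 in the second, and -1.40 and -1.18 in the third.

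The member called higher was SLC25A32, the carrier that brings folate into mitochondria, at 0.33 ± 0.087 in P114 over CMT-U335 (limma adjusted p = 0.0301). That call was lost without replicate 2, 3, 4 or 5, with adjusted p from 0.06 to 0.097. Its other ratios were 0.02 and 0.26, neither called.

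The remaining 5 folate genes were called in no pair. SHMT2, which makes glycine and a single-carbon unit from serine in mitochondria, gave 0.27, 0.03 and 0.05 in the 3 pairs. MTFMT, which formylates the mitochondrial initiator tRNA, gave -0.19, 0.09 and -0.26. MTHFD1, the trifunctional folate enzyme of the cytosol, gave -0.13, 0.06 and -0.15, and MTR, methionine synthase, gave 0.03, 0.01 and 0.01. ATIC, which uses formyl-tetrahydrofolate in purine synthesis, was too variable to place: its arrays in P114 over CMT-U335 ran from -1.23 to 3.64, with a mean of 1.33 ± 0.765 (limma adjusted p = 0.282).

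**Figure D3:**
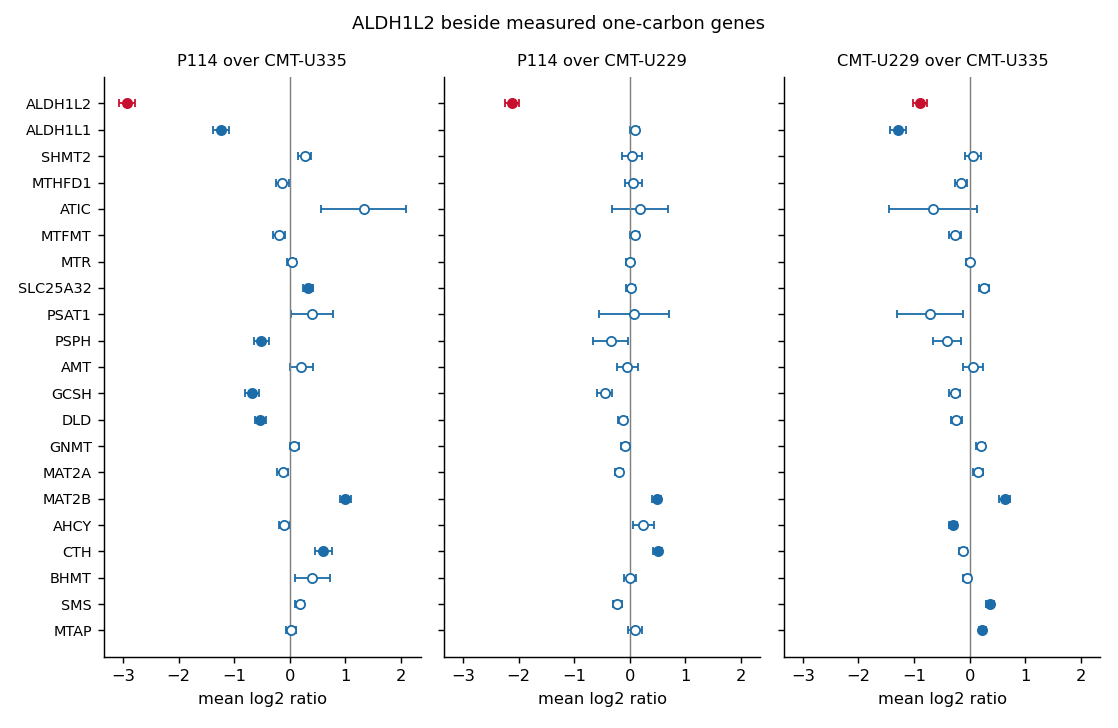
Mean log2 ratio (x axis) with SE over 5 arrays for ALDH1L2 in red and the measured genes of the folate, serine-glycine and methionine lists in blue, 1 panel per pair. Filled blue points passed limma's adjusted threshold, and ALDH1L2 was not tested; ALDH1L2 is the lowest point in the panels of P114 over CMT-U335 (-2.93) and P114 over CMT-U229 (-2.12).

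Serine and glycine genes feed the mitochondrial folate pool. Of 6 measured members of 10, 3 were called lower in P114 than in CMT-U335 and 0 higher. GCSH and DLD, both subunits of the glycine cleavage system, stood at -0.69 ± 0.125 and -0.53 ± 0.103 (limma adjusted p = 0.00713 and 0.00952). PSPH, the last enzyme of serine synthesis, stood at -0.51 ± 0.131 (limma adjusted p = 0.0279). Its call was lost without replicate 2, 3, 4 or 5, with adjusted p up to 0.0878.

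No serine or glycine gene was called in either other pair by limma, or by a permutation test of the kind the study used (SAM-type), at 1 and 3 genes with an unadjusted p under 0.05. GCSH gave -0.45 in P114 over CMT-U229 and -0.27 in CMT-U229 over CMT-U335. PSAT1, which makes phosphoserine, was too variable to place, at 0.08 ± 0.631 and -0.71 ± 0.587 (SE), with arrays from -2.86 to 1.55 in the latter pair. Calls made up 50.0%, 0% and 0% of the list in the 3 pairs, beside 22.3%, 7.30% and 17.3% of all genes. The list's medians were -0.21, -0.10 and -0.26.

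Methionine and transsulfuration genes had 7 of 13 measured. MAT2B, the regulatory subunit of methionine adenosyltransferase, was called higher in the first line of each pair, at 1.00 ± 0.10, 0.48 ± 0.0762 and 0.63 ± 0.105 (limma adjusted p = 0.000589, 0.0112 and 0.00727). CTH, which releases cysteine in transsulfuration, was called higher in P114 against both other lines, at 0.60 ± 0.154 and 0.50 ± 0.0807 (limma adjusted p = 0.0281 and 0.0121). For CMT-U229 over CMT-U335, SMS and MTAP, enzymes of polyamine synthesis and methionine salvage, were called higher (0.37 and 0.23), and AHCY, which clears S-adenosylhomocysteine, lower (-0.30). These made 2 higher and 0 lower in the first pair, 2 and 0 in the second, and 3 and 1 in the third, with medians of 0.18, 0.10 and 0.15. The shares called were 28.6%, 28.6% and 57.1%, beside 22.3%, 7.30% and 17.3% of all genes.

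Several of the methionine calls were lost without 1 array. CTH missed the threshold in P114 over CMT-U335 without replicate 1, 3 or 5 (limma adjusted p up to 0.0936) and in P114 over CMT-U229 without replicate 1 (0.053). SMS missed it without replicate 5 (0.0507), and AHCY and MTAP without any 1 of the 5 (0.0558 to 0.0936 and 0.077 to 0.151). With arrays that look like dye swaps of each other averaged, which leaves 3 values per pair, MAT2B and CTH missed it in P114 over CMT-U229 (0.0764 and 0.0781), and MAT2B, SMS, AHCY and MTAP in CMT-U229 over CMT-U335 (0.0775 to 0.197).

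Purine and thymidylate synthesis draws on cytosolic formyl and methylene folate. Of 17 genes, 5 were measured, ATIC included. In P114 over CMT-U335, 0 were called by limma or by the SAM-type test and 1 had an unadjusted p under 0.05; ADSL, which acts in 2 steps of purine synthesis, gave -0.28. IMPDH2, on the branch to guanine nucleotides, was called lower in P114 than in CMT-U229 (-0.55 ± 0.0818, limma adjusted p = 0.00869; 0.0626 with apparent swaps averaged). ADSS2, on the branch to adenine nucleotides, was called higher in CMT-U229 than in CMT-U335 (0.41 ± 0.0966, limma adjusted p = 0.0267). It missed the threshold without replicate 2, 3 or 5, with adjusted p up to 0.0885, and at 0.121 with apparent swaps averaged. Calls made up 0%, 20.0% and 20.0% of the list in the 3 pairs, beside 22.3%, 7.30% and 17.3% of all genes. The list's medians were -0.10, -0.43 and 0.28.

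Within the aldehyde dehydrogenase family, which oxidises aldehydes with NAD or NADP as acceptor, 7 relatives of ALDH1L2 were measured of 17 listed. Of these, 0 were called higher and 2 lower in P114 than in CMT-U335, 0 and 1 in P114 than in CMT-U229, and 1 and 1 in CMT-U229 than in CMT-U335. Beside ALDH1L1, the first pair held ALDH7A1, which acts in lysine breakdown, at -0.45 ± 0.099 (limma adjusted p = 0.016, but 0.0502 to 0.0563 without replicate 1, 3 or 5). ALDH9A1, which oxidises trimethylaminobutyraldehyde in carnitine synthesis, was 2.40-fold lower in P114 than in CMT-U229 (-1.26 ± 0.136, limma adjusted p = 0.00224; 0.0801 with apparent swaps averaged). It was 2.02-fold higher in CMT-U229 than in CMT-U335 (1.01 ± 0.171, limma adjusted p = 0.00744), the opposite sign to ALDH1L2 in that pair.

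ALDH2, the mitochondrial enzyme that oxidises acetaldehyde, was called in no pair and gave -0.38, -0.41 and 0.20. ALDH1A1, ALDH3A2 and ALDH8A1 lay between -0.08 and 0.23 in all pairs and were not called. Of the measured family 28.6%, 14.3% and 28.6% were called in the 3 pairs, beside 22.3%, 7.30% and 17.3% of all genes. The family's medians were -0.35, -0.02 and 0.09.

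Other enzymes that supply or use NADPH were measured for 9 of 14 genes, and 0 were called higher and 4 lower in P114 than in CMT-U335. Over the 3 pairs 44.4%, 22.2% and 55.6% of them were called, beside 22.3%, 7.30% and 17.3% of all genes. ME1, cytosolic malic enzyme, was called lower in the first line of every pair, as the sign of ALDH1L2 also was. It read -1.21, -0.92, -1.81, -1.40 and -1.68 in P114 over CMT-U335, a mean of -1.41 ± 0.135 and 2.65-fold lower (limma adjusted p = 0.000501). Its means were -0.63 ± 0.089 in P114 over CMT-U229 and -0.82 ± 0.115 in CMT-U229 over CMT-U335 (limma adjusted p = 0.00703 and 0.00353; 0.0571 and 0.0367 with apparent swaps averaged).

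The NADP-linked isocitrate dehydrogenases IDH1 of the cytosol and IDH2 of mitochondria stood at -0.84 ± 0.155 and -0.82 ± 0.0712 in P114 over CMT-U335 (limma adjusted p = 0.00748 and 0.000348). Between CMT-U229 and CMT-U335 they stood at -0.28 and -0.64 (limma adjusted p = 0.0384 and 0.0262). NNT, the transhydrogenase that makes NADPH in the inner mitochondrial membrane, stood at -0.34 in the first pair and -0.60 in the third (limma adjusted p = 0.0464 and 0.00698), and at 0.33 in P114 over CMT-U229, not called. Neither IDH1 (-0.50) nor IDH2 (-0.21) was called in that pair.

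TXNRD1, thioredoxin reductase, was called lower in P114 than in CMT-U229 (-0.54 ± 0.0902, limma adjusted p = 0.0137), and GSR, glutathione reductase, higher in CMT-U229 than in CMT-U335 (0.53 ± 0.111, limma adjusted p = 0.0188). The list thus had 0 higher and 2 lower in the second pair and 1 higher and 4 lower in the third, and its medians were -0.05, -0.21 and -0.10. Calls were lost without replicate 2, 3 or 5 for NNT in P114 over CMT-U335 (limma adjusted p up to 0.142) and without replicate 1 or 2 for TXNRD1 (up to 0.0574). In CMT-U229 over CMT-U335 they were lost without replicate 2 or 5 for IDH2 (up to 0.0943), 2 or 3 for GSR (up to 0.0687) and any 1 of the 5 for IDH1 (0.0567 to 0.127). With apparent swaps averaged, TXNRD1, IDH1, IDH2 and GSR missed the threshold (0.134, 0.189, 0.111 and 0.099).

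**Figure D4:**
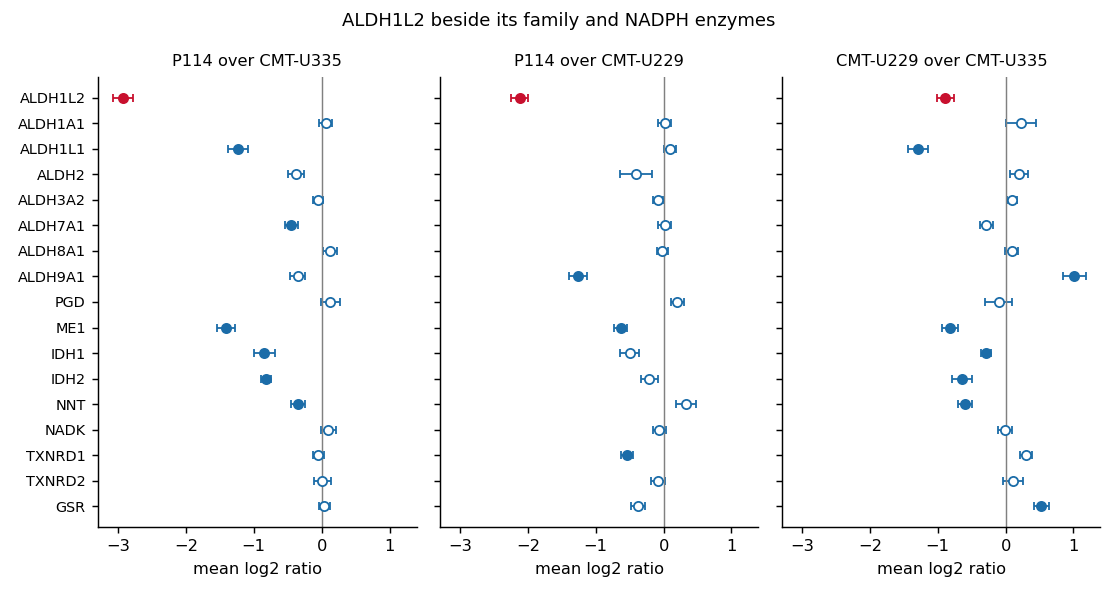
Mean log2 ratio (x axis) with SE over 5 arrays for ALDH1L2 in red and the measured aldehyde dehydrogenases and NADPH enzymes in blue, 1 panel per pair, with filled blue points past limma's adjusted threshold. ME1 lies left of 0 in all 3 panels (-1.41, -0.63 and -0.82), and ALDH9A1 changes side between the panel of P114 over CMT-U229 (-1.26) and that of CMT-U229 over CMT-U335 (1.01).

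ATF4 is a stress-induced transcription factor whose targets include amino acid transporters, tRNA synthetases and enzymes of serine and mitochondrial folate metabolism. Of 37 genes listed with it, 16 were measured. Calls made up 31.2%, 0% and 6.25% of these 16 in the 3 pairs, beside 22.3%, 7.30% and 17.3% of all genes. ATF4 itself gave 0.08, -0.26 and 0.12 and was not called. In P114 over CMT-U335, 2 were called higher, VEGFA (0.73 ± 0.0769) and EPRS1 (0.30 ± 0.0813), and 3 lower, ASNS (-0.55 ± 0.115), PSPH and AARS1 (-0.41 ± 0.107), with limma adjusted p from 0.000678 to 0.0342. ASNS, asparagine synthetase, and PSPH missed the threshold when all 15 arrays shared 1 estimate of the spread (limma adjusted p = 0.294 and 0.215). AARS1 and EPRS1, tRNA synthetases, missed it without replicate 1, 2, 3 or 5 and without replicate 1, 3, 4 or 5 (up to 0.0918 and 0.11).

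In P114 over CMT-U229, 0 of the 16 genes of the ATF4 list were called by limma, beside 7.30% of all genes. There, 3 had an unadjusted p under 0.05 and 1 passed the SAM-type test. AARS1 gave -0.51 and EPRS1 -0.44. In CMT-U229 over CMT-U335, EPRS1 was the 1 gene called, higher at 0.74 ± 0.0959 (limma adjusted p = 0.00249). The list's medians were 0.07, -0.02 and 0.02.

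Mitochondrial translation, which starts with formylated methionine, had 6 of 11 genes measured, MTFMT among them. GFM1, a mitochondrial elongation factor, was called lower in P114 against both other lines, at -1.04 ± 0.239 and -0.64 ± 0.0949 (limma adjusted p = 0.0183 and 0.00852). MTIF3, an initiation factor, was called lower in P114 and in CMT-U229 than in CMT-U335, at -0.40 ± 0.0759 and -0.36 ± 0.0758 (limma adjusted p = 0.00884 and 0.0177), although 1 of its 3 probes gave -0.06 and 0.04. TUFM, the elongation factor that delivers tRNA, was called higher in P114 than in CMT-U335 (0.44 ± 0.109, limma adjusted p = 0.0251). MTIF2, which places the initiator tRNA, was called higher in CMT-U229 than in CMT-U335 (0.88 ± 0.108, limma adjusted p = 0.00204). The counts were 1 higher and 2 lower, 0 and 1, and 1 and 1, with medians of -0.14, 0.06 and -0.10. They are 50.0%, 16.7% and 33.3% of the list, beside 22.3%, 7.30% and 17.3% of all genes.

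Without 1 array, GFM1 missed the threshold in P114 over CMT-U335 (replicate 1, 3 or 5, limma adjusted p up to 0.0616), TUFM did so (2, 3 or 4, up to 0.0852), and MTIF3 did so in CMT-U229 over CMT-U335 (2, 3 or 5, up to 0.0727). With apparent swaps averaged, GFM1 in P114 over CMT-U229 and MTIF3 in CMT-U229 over CMT-U335 were at 0.0942 and 0.142.

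The lines differed widely in marker genes beside ALDH1L2, whose part in its ratios was not tested. Of 6 epithelial markers measured of 16, 4 were called higher and 1 lower in P114 than in CMT-U335, 2 and 0 in P114 than in CMT-U229, and 3 and 0 in CMT-U229 than in CMT-U335. EPCAM stood at 3.55, 1.80 and 1.78, KRT18 at 3.48, 2.41 and 0.79, and KRT8 at 2.46, -0.31 (not called) and 2.56. DSP (0.57) and TJP1 (-0.35) were called in the first pair, and these calls were lost without replicate 3 (limma adjusted p = 0.0895) and without 2, 3 or 5 (up to 0.0722). Calls made up 83.3%, 33.3% and 50.0% of the list in the 3 pairs, beside 22.3%, 7.30% and 17.3% of all genes. The list's medians were 1.51, 0.13 and 0.47.

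Of 7 mesenchymal markers measured of 18, the calls were 1 higher and 3 lower, 4 and 0, and 0 and 5 in the same order of pairs, with medians of -0.33, 0.77 and -0.81. These calls are 57.1%, 57.1% and 71.4% of the list, beside 22.3%, 7.30% and 17.3% of all genes. COL1A2, a chain of type I collagen, gave -1.39, 2.06 and -3.39, so it was higher in P114 than in CMT-U229, where ALDH1L2 was lower. S100A4 gave -0.23 (not called), 1.54 and -1.58, FBLN2 -0.84, 0.47 (not called) and -1.47, and ZEB1 -0.91, -0.17 (not called) and -0.57. COL3A1 (0.69 and 0.77) and DCN (0.90) were called higher in P114, and DCN lower in CMT-U229 than in CMT-U335 (-0.81). Their probes differed in size. Those of COL3A1 gave 0.28 and 1.11 in P114 over CMT-U335, and 0.40 and 1.14 in P114 over CMT-U229. Those of DCN gave 1.26 and 0.54 in P114 over CMT-U229, and -1.38 and -0.24 in CMT-U229 over CMT-U335. DCN in P114 over CMT-U229 missed the threshold without replicate 2, 3, 4 or 5 (limma adjusted p up to 0.139), and DCN, COL1A2 and COL3A1 missed it there with apparent swaps averaged (0.213, 0.0942 and 0.0548).

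Bone markers were measured for 5 of 12 genes, with 2 higher and 1 lower, 2 and 0, and 1 and 1, and medians of 0.17, 1.33 and -0.07. Called shares were 60.0%, 40.0% and 40.0%, beside 22.3%, 7.30% and 17.3% of all genes. SPP1, osteopontin, was higher in P114 and CMT-U229 than in the osteosarcoma line, at 4.12 and 2.58, and SPARC, osteonectin, was called higher in P114 at 0.56 and 1.33. SPARC missed the threshold in P114 over CMT-U335 without replicate 2, 3, 4 or 5 (limma adjusted p up to 0.125) and in P114 over CMT-U229 with apparent swaps averaged (0.114). Type I collagen was highest and osteopontin lowest in the line labelled osteosarcoma, and bone alkaline phosphatase ALPL was called in no pair (0.17, 0.02 and -0.07).

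Leukocyte markers were measured for 9 of 15 genes, with 1 higher and 1 lower, 1 and 0, and 0 and 0, and medians of 0.10, -0.03 and 0.07. Called shares were 22.2%, 11.1% and 0%, beside 22.3%, 7.30% and 17.3% of all genes. CD14 gave 0.36 and 0.50 in the pairs with P114, the first of which missed the threshold without replicate 2, 3, 4 or 5 (limma adjusted p up to 0.13), and the second with apparent swaps averaged (0.0611). LCP1 gave -0.52 in P114 over CMT-U335, from probes at -0.17 and -0.86, and the probes of CD14 there gave 0.61 and 0.11. In CMT-U229 over CMT-U335, 0 were called by limma or the SAM-type test and 0 had an unadjusted p under 0.05, with CD14 at -0.13 and LCP1 at 0.12. Ratios cannot show whether such a marker is absent from a line.

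In the RefSeq gene table of the dog assembly UU_Cfam_GSD_1.0, ALDH1L2 lies on chromosome 10, and the order of genes there was used to find its measured neighbours. The build behind the probes is not given in the sources used here, so no positions are printed. The gene annotated next to it, C10H12orf45, read -0.86, -0.50, -1.92, -0.59 and -1.05 in P114 over CMT-U335, a mean of -0.98 ± 0.197 (limma adjusted p = 0.0107). It stood at -0.30 ± 0.101 in P114 over CMT-U229 (limma adjusted p = 0.146) and at -0.50 ± 0.0968 in CMT-U229 over CMT-U335 (limma adjusted p = 0.0129). The last call was lost without replicate 5 (0.0544) and with apparent swaps averaged (0.0825). Hybridisation of ALDH1L2 transcripts to the probe of this gene, or the reverse, was not tested.

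Of the other 7 measured neighbours of ALDH1L2, POLR3B and TXNRD1 were each called in 1 pair and the rest in none. Among all genes, 22.3%, 7.30% and 17.3% were called in the 3 pairs, and no difference from these shares was tested. The 7 neighbours are the nearest measured genes and are not adjacent to ALDH1L2. Counted in genes from ALDH1L2, SLC41A2, TXNRD1 and LIMS1 are at 3, 9 and 25. CKAP4, POLR3B, RFX4 and PWP1 are at -17, -23, -27 and -43. SLC41A2, a magnesium transporter on the same side as C10H12orf45, gave 0.27, 0.15 and -0.10. LIMS1, farther along on that side, gave -0.11, 0.15 and -0.14, and TXNRD1 is described above. On the other side, CKAP4 gave -0.23, -0.35 and 0.15, RFX4 gave 0.03, -0.03 and 0.05, and PWP1 gave -0.30, 0.24 and -0.31. POLR3B, a subunit of RNA polymerase III, was called lower in P114 than in CMT-U335 (-0.37 ± 0.0993, limma adjusted p = 0.0334), a call lost without replicate 3, 4 or 5 (up to 0.109).

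The genes whose ratios over the 15 arrays were most like those of ALDH1L2 were ranked by cosine similarity, which is 1 when 2 genes' ratios are proportional. The arrays share lines and hybridisations, so this is a description over 5244 genes with a value on every array. SUN1, a protein of the inner nuclear membrane, came first at a cosine of 0.988, with mean ratios of -1.03, -0.67 and -0.34. Its likeness rests on 1 of its 2 probes, which gave -1.94, -1.25 and -0.77, whereas the other gave -0.12, -0.09 and 0.09. GSTA4, a glutathione transferase that clears lipid aldehydes, followed at 0.982 with -1.23, -0.72 and -0.39. ACAT1, mitochondrial acetoacetyl-CoA thiolase, had 0.969 with -0.91, -0.52 and -0.35, and its 2 probes also differed, at -1.45, -0.99 and -0.42 against -0.37, -0.06 and -0.29. As averages over probes, all 3 had the order of pairs seen for ALDH1L2 at a smaller size.

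The next were CTSZ (0.968), ATXN10 (0.966), PITHD1 (0.961), GTF3A (0.960), MITF (0.957), MRPL21 (0.954) and RAD50 (0.953). The 2 probes of RAD50 gave 0.12 and -0.18 in CMT-U229 over CMT-U335, opposite in sign. MITF, a transcription factor of the microphthalmia family, was the largest of the 10 in P114 over CMT-U335, with mean ratios of -1.90, -1.15 and -0.53. In all, 11 genes reached a cosine of 0.95 and 63 reached 0.9. None of the 7 measured folate cycle genes was among these 10, out of 5244 genes ranked. With so few genes in either group an overlap would be rare, so its absence is not a result.

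By root mean square difference over the arrays, which also asks for equal size, the closest gene was SGCE, a sarcoglycan, at 0.809 log2 units. Its mean ratios were -2.61, -1.01 and -1.55, so it was farther from 0 than ALDH1L2 between CMT-U229 and CMT-U335 and nearer between P114 and CMT-U229. LOC480844 (0.954), MITF (0.955), the small heat shock protein gene CRYAB (1.02) and ATP23 (1.07) came next. CRYAB gave -1.79, -1.70 and 0.15, so it had the sign of ALDH1L2 only in the pairs with P114. Its 4 probes ran from -2.49 to -0.81 in P114 over CMT-U335. MITF was the 1 gene in both selections.

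**Figure D5:**
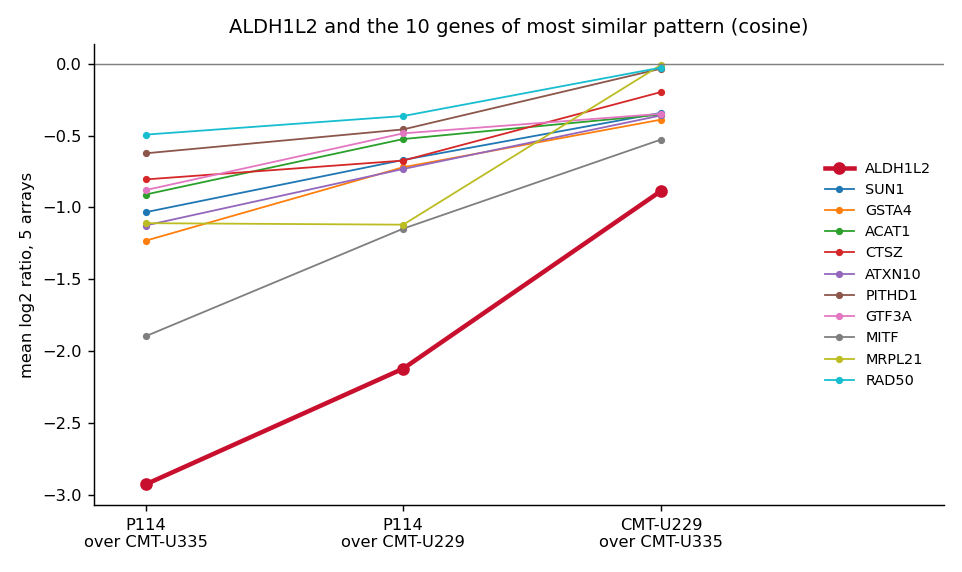
Mean log2 ratio over 5 arrays (y axis) in the 3 pairs of lines (x axis) for ALDH1L2 in red and the 10 genes of highest cosine similarity; lines between pairs only guide the eye. ALDH1L2 lies lowest in all 3 pairs, and MITF is the nearest to it in P114 over CMT-U335 (-1.90).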

How the data were processed

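Total RNA of the 3 lines was amplified with T7 polymerase, coupled to Cy3 or Cy5 and hybridised in pairs to cDNA arrays, per the labels' protocols. The deposited table holds log2 ratios; the authors normalized and log-transformed them before testing, as the design text has it. The normalization method, the log base and the numerator were not given in the sources used here. Base 2 was assumed because the largest absolute value, 12.43, read as a natural log would be a 249732-fold ratio, beyond the 65536 levels of a 16-bit scan. Array medians lay between -0.00671 and 0.0133. Same-dye arrays of a pair correlated at 0.29 to 0.42, 0.20 to 0.32 and 0.24 to 0.50 over all probes, and opposite-dye arrays at -0.35 to -0.23, -0.22 to -0.09 and -0.34 to 0.0001, in the order of pairs used in the report. Intensities were not used, so the number of arrays limits the precision.

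Of 22176 probes (2 missing values), 7694 had 1 symbol and 14482 none; 7340 symbols were updated through Entrez identifiers and 354 kept. Each array was turned to its title's order by its dyes, and probes were averaged per gene and array (5246 genes, each with a value on at least 3 arrays of a pair). Pairs were fitted separately in R 4.3.3 with limma 3.58.1 (mean against 0, two-sided, Benjamini-Hochberg over genes, threshold 0.05), in place of the SAM analysis named in the design text. A SAM-type test, 1 fit over all 15 arrays, a fit of line levels, a dye term, array centring and scaling, single probes, leaving out each array and averaging apparent dye swaps were alternatives. To find apparent swaps, the arrays of a pair were split into 2 couples and 1 single array in every way, whatever their dyes. The split with the least spread within couples was taken, over genes of large spread and small dye effect. It was used only where both couples had opposite dyes. This held in P114 over CMT-U229 (replicates 1 with 3 and 2 with 5) and CMT-U229 over CMT-U335 (2 with 3 and 4 with 5). In P114 over CMT-U335 the best split coupled replicates 2 and 3, which had the same dyes, so no swaps were averaged there. Scripts were tested on simulated data.

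ALDH1L2, the lists and the tests were chosen with earlier results of these data known. The text names ALDH1L2 and both probes, every measured folate gene, up to 5 called genes per pair of each other list (or 2 as values), up to 4 measured neighbours on each side, the 10 genes most similar by cosine and the 5 closest by root mean square difference.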

Additional observations from a re-analysis of the deposited data

Results flagged for a closer look

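Among 30 groups of 5 arrays examined for ALDH1L2, its probes and the folate genes, 1 held an array far from the others; chance alone marks about 1 in 20 such groups. MTHFD1, the cytosolic trifunctional folate enzyme, read 0.333 on replicate 4 of P114 over CMT-U335, whereas the other 4 arrays lay between -0.30 and -0.137.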

How the results depend on the processing

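The mean ratio of ALDH1L2 stayed below 0 in every pair under centring, scaling, a dye term and the fits over all 15 arrays. It also did so with each probe by itself and without any 1 array. Averaged swaps gave -2.16 in P114 over CMT-U229 and -0.84 in CMT-U229 over CMT-U335, and were not available for P114 over CMT-U335. Both probes read below 0 on every array, so leaving out arrays, single probes, averaging and scaling could not change the sign. Without 1 array the mean ratio ran from -3.08 to -2.81, -2.24 to -2.04 and -0.97 to -0.78. It ran farther with single probes (-3.12 and -2.74, -2.34 and -1.90, -0.99 and -0.78) and scaling (-2.80, -2.30 and -0.94). Read as Cy3 over Cy5 it becomes 2.93, 2.12 and 0.89. Deviations of same-numbered arrays correlated at -0.25 to 0.33. Dyes also differed among same-numbered arrays, so these values do not settle whether the replicate numbers pair the arrays. With the replicate number as a block, the ALDH1L2 means stayed -2.93, -2.12 and -0.89, and 1172, 515 and 920 genes were called instead of 1169, 383 and 910. The number called was 1757, 1056 and 1445 in the fit of line levels, 642, 159 and 470 at an adjusted p under 0.01, 650 for P114 over CMT-U229 in 1 fit over all arrays, and 79 there and 410 for CMT-U229 over CMT-U335 with apparent swaps averaged. Without 1 array it ran from 835 to 1031, 202 to 408 and 571 to 863. Called folate genes in P114 over CMT-U335 went from 2 to 1 at 0.01 and with each probe as a row, and ran from 1 to 2 without 1 array; in CMT-U229 over CMT-U335 they went from 1 to 2 in the fit over all arrays and to 3 in the fit of line levels. The causes were not tested. Of 109 called values of the genes named, 50 missed the threshold under some alternative, and none of these means over probes changed sign under those run for them. Single probes could differ in sign from such a mean. In CMT-U229 over CMT-U335, MTIF3 and SUN1 were called lower, yet 1 probe of each lay above 0 (0.04 and 0.09).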

Other observations

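Many probes on these arrays have no gene symbol in the platform annotation used here, and some of them tracked ALDH1L2. Of 14481 unnamed probes measured on every array, 10 had a cosine of at least 0.95 with ALDH1L2 and 40 at least 0.9, against 15 and 87 of 7693 named probes. The 7693 include the 2 probes of ALDH1L2 itself, whose average is the pattern compared. The most similar unnamed probe was probe 4127, at a cosine of 0.984. Its mean ratios were -1.94, -1.37 and -0.57 in P114 over CMT-U335, P114 over CMT-U229 and CMT-U229 over CMT-U335. Probe 20763 gave -1.93, -1.36 and -0.50 (0.975) and probe 12869 gave -1.31, -0.97 and -0.19 (0.979). All 3 were nearer to 0 than ALDH1L2 in each pair. Which transcripts they detect was not analysed here.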
